A study of Mus musculus with 24 samples.

Results

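Unwounded back skin was compared with unwounded abdomen skin, as dorsal against ventral trunk skin in homeostasis. The members were the 8 libraries that the labels give as back control and abdomen control, 4 mice at each site, of 24 libraries in the series. Each library was a 2 mm punch of healthy whole skin taken beside a full-thickness wound at day 3. The mice were CD1, an outbred albino stock, 7 weeks old and coordinated in telogen, the resting phase of the hair cycle; they were shaved, anaesthetised and given analgesia, and each provided skin from a single site. The back and abdomen mice were therefore different animals, and no pairing between them was used. The back mice and the abdomen mice had each received 2 wounds nearby. The 4 unwounded cheek libraries entered only the shared estimate of the spread.

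The dermis of the back derives from the somites (paraxial mesoderm), whereas the dermis of the ventral trunk derives from the lateral plate mesoderm. Fibroblasts keep part of this positional identity in adult skin as expression of transcription factors such as HOX, T-box and ZIC proteins. Mouse trunk skin also holds epidermis, hair follicles with sebaceous glands, dermal fat, vessels, resident immune cells and, under the fat, a thin sheet of striated muscle, the panniculus carnosus. A punch of whole skin contains all of these layers.

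The values are FPKM, fragment counts divided by transcript length and library total. Of 18368 genes in the table, 17546 were above 0 in at least 1 of the 8 libraries, and 13956 reached 0.5 FPKM in 4 or more of the 12 unwounded libraries and were tested. Keratinocyte and dermal genes were abundant in all 8 libraries, with Krt14, the basal keratin, between 1153 and 2016 FPKM and Col1a1, the main chain of collagen I, between 3559 and 7074 FPKM. Y-linked Ddx3y was between 12.5 and 20.1 FPKM in all 8. Pairwise correlations of log2 values across genes, which are not independent replicates, were 0.950 to 0.980 among abdomen libraries and 0.971 to 0.981 among back libraries. Some libraries stood apart. The abdomen libraries of mice 2 and 3 held little skeletal muscle RNA, with 1010 and 4870 FPKM summed over 46 muscle markers against 23287 to 37217 FPKM in the other 6 libraries. The back libraries of mice 1 and 3 held insulin transcripts, with Ins2 at 113.5 and 116.6 FPKM and 0 in the other 6. The back library of mouse 2 alone held inner root sheath keratins, with Krt71 at 27.3 FPKM and at most 0.20 FPKM in the others. For most gene groups with calls, counts are also given without abdomen mice 2 and 3 and without back mice 1 and 3. These fits have fewer samples.

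Between back and abdomen skin, 373 genes differed at an adjusted p under 0.05, which is 2.67% of those tested. Of these, 74 genes were higher in back skin (0.53% of tested genes) and 299 were lower (2.14%). The share of calls in each gene group below can be read against these percentages. A log2 fold change beyond 1 in size was found for 48 of the higher and 66 of the lower genes. The 8 libraries did not overlap between the sites for 365 of the 373 called genes, against 13.3% of all tested genes (2.59% with back above abdomen and 10.7% below). Genes named below for the largest changes were taken from those without overlap, so their separation was a condition of the choice. At an unadjusted p under 0.05 there were 3072 genes, 762 higher and 2310 lower. The median log2 fold change of all tested genes was -0.12, although summed FPKM overlapped between the sites (490830 to 561753 in abdomen and 519018 to 548455 in back), and each value given here can be read against this median. After median-ratio scaling of the libraries, which moved this median to 0.0044, the calls were 80 higher and 129 lower (0.574% and 0.926%), and the share of calls that were lower went from 80.2% to 61.7%. The scaled calls included 70 of the 74 higher and 129 of the 299 lower genes. The number of lower genes therefore depended on how the libraries were scaled, although lower genes outnumbered higher ones either way. Without the abdomen libraries of mice 2 and 3 there were 38 calls, 14 higher and 24 lower, which included 10 of the 74 and 22 of the 299. Without the back libraries of mice 1 and 3 there were 33 calls, 12 higher and 21 lower.

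**Figure D1:**
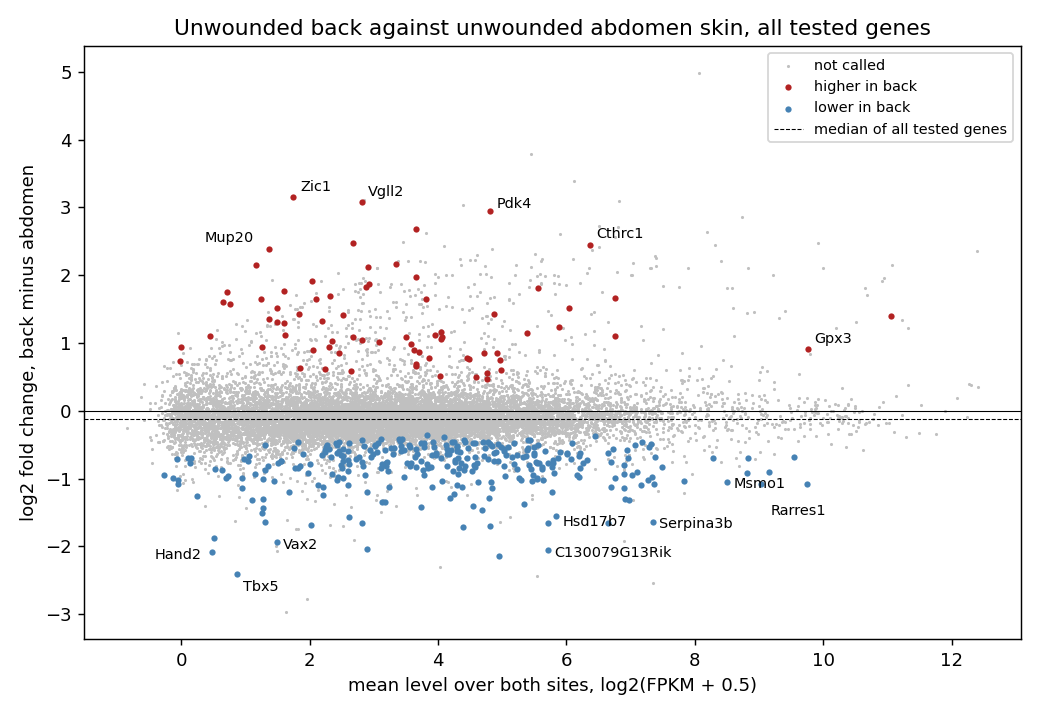
Log2 fold change of back minus abdomen (vertical) against mean level over both sites in log2(FPKM + 0.5) (horizontal) for the 13956 tested genes, with the 74 genes called higher in back in red, the 299 called lower in blue and the others in grey. The dashed line is the median of all tested genes at -0.12, and blue points outnumber red ones across the range of levels.

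Several transcription factors of body position differed between the sites, although most members of their lists were not called. Zic1, a zinc-finger factor of the dorsal neural tube and somites, was 0.16, 0.14, 0.11 and 0.32 FPKM in abdomen mice 1 to 4 and 5.01, 6.22, 5.62 and 5.28 FPKM in back mice 1 to 4. It had the largest log2 fold change of any called gene, 3.15 (SE 0.15, adjusted p = 3.7e-07), and lies at chr9:91358058-91365768 of GRCm38. Its neighbour Zic4, at chr9:91365631-91389351, was listed at 0 in all 4 abdomen libraries and at 0.53, 0.47, 0.53 and 0.60 FPKM in the back libraries, too low for the filter. The annotated spans of both genes overlap on the chromosome, and whether reads were shared between them is not given in the sources used here. Hoxb8, a posterior HOX gene, was 1.18 to 1.73 FPKM in abdomen and 3.50 to 6.16 FPKM in back (log2 fold change 1.43, SE 0.17, adjusted p = 0.0015). Pitx1, a homeobox factor of the hindlimb field, was 0.02 to 0.59 FPKM in abdomen and 0.95 to 2.09 FPKM in back (1.11, SE 0.24, adjusted p = 0.029). The 2 site ranges did not overlap for any of these 4 genes, and in wounds of the same mice Zic1 stood at a mean of 0.0925 FPKM in abdomen and 2.91 FPKM in back.

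Tbx5 and Hand2, a pair of lateral plate factors, were higher in abdomen skin. Tbx5, the T-box factor of the forelimb field and heart, was 2.18, 2.75, 2.77 and 2.58 FPKM in abdomen mice 1 to 4 and 0.03, 0.02, 0.13 and 0.13 FPKM in back mice 1 to 4 (log2 fold change -2.41, SE 0.17, adjusted p = 2.5e-05). Hand2, a basic helix-loop-helix factor of ventral mesenchyme, was 1.56 to 2.07 FPKM in abdomen and at most 0.09 FPKM in back, where 2 of the 4 libraries were at 0 (-2.08, SE 0.20, adjusted p = 0.00040). Neither gene's abdomen libraries came near its back libraries. Because log2(FPKM + 0.5) is a compressed scale for low genes, these fold changes understate the ratio of the levels. In cheek skin, Hand2 averaged 1.90 ± 0.72 FPKM (SD, n = 4) and Tbx5 0.715 ± 0.26 FPKM. Among 11 tested lateral plate factors, 2 fell and 1, Pitx1, rose in back relative to abdomen, and among 12 tested paraxial and dorsal factors 1, Zic1, rose. With no filter on low values, 3 paraxial and dorsal factors rose, among them Zic4 (1.04, adjusted p = 1.3e-06). Of 29 tested HOX genes only Hoxb8 was called, a share near the 2.67% of all tested genes. Tbx5, Hand2, Zic1 and Hoxb8 were called both without abdomen mice 2 and 3 and without back mice 1 and 3, whereas Pitx1 was not called in the first fit (adjusted p = 0.30) and was too low to be tested in the second. Hoxb6 overlapped, at 2.41 to 5.32 FPKM in abdomen and 2.72 to 4.33 FPKM in back (0.09, SE 0.21, adjusted p = 0.83). En1, the Engrailed factor used to trace dorsal fibroblasts, likewise overlapped, at 2.67 to 4.47 FPKM in abdomen and 3.45 to 4.33 FPKM in back (0.17, SE 0.16, adjusted p = 0.55).

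Another 4 developmental genes were higher in abdomen. Vax2, a homeobox factor known from the ventral eye, was 5.54, 3.77, 2.74 and 3.76 FPKM in abdomen mice 1 to 4 and 0.62, 0.95, 0.51 and 0.50 FPKM in back mice 1 to 4 (-1.94, SE 0.20, adjusted p = 0.00084). Mab21l1, a developmental gene of the eye, was 1.51 to 2.02 FPKM in abdomen and 0.04 to 0.31 FPKM in back (-1.87, SE 0.21, adjusted p = 0.00091). The agouti gene, symbol a, whose secreted product turns melanocytes to yellow pigment, was 3.00 to 3.30 FPKM in abdomen and 0.30 to 1.16 FPKM in back (-1.64, SE 0.26, adjusted p = 0.0074). Tfap2b, an AP-2 factor, was 12.5 to 13.9 FPKM in abdomen and 8.35 to 10.04 FPKM in back (-0.50, SE 0.09, adjusted p = 0.016). It was the single call among 43 other patterning factors tested, a share near the 2.67% of all tested genes. For each of these 4 genes every abdomen library exceeded every back library. The agouti gene and Tfap2b were not called without abdomen mice 2 and 3 (adjusted p = 0.13 and 0.28) or without back mice 1 and 3 (adjusted p = 0.053 and 0.14). Tbx5, Hand2, Zic1, Hoxb8, Vax2 and Mab21l1 were among the 21 genes, 4 higher and 17 lower, that passed the threshold in all 24 alternative analyses.

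**Figure D2:**
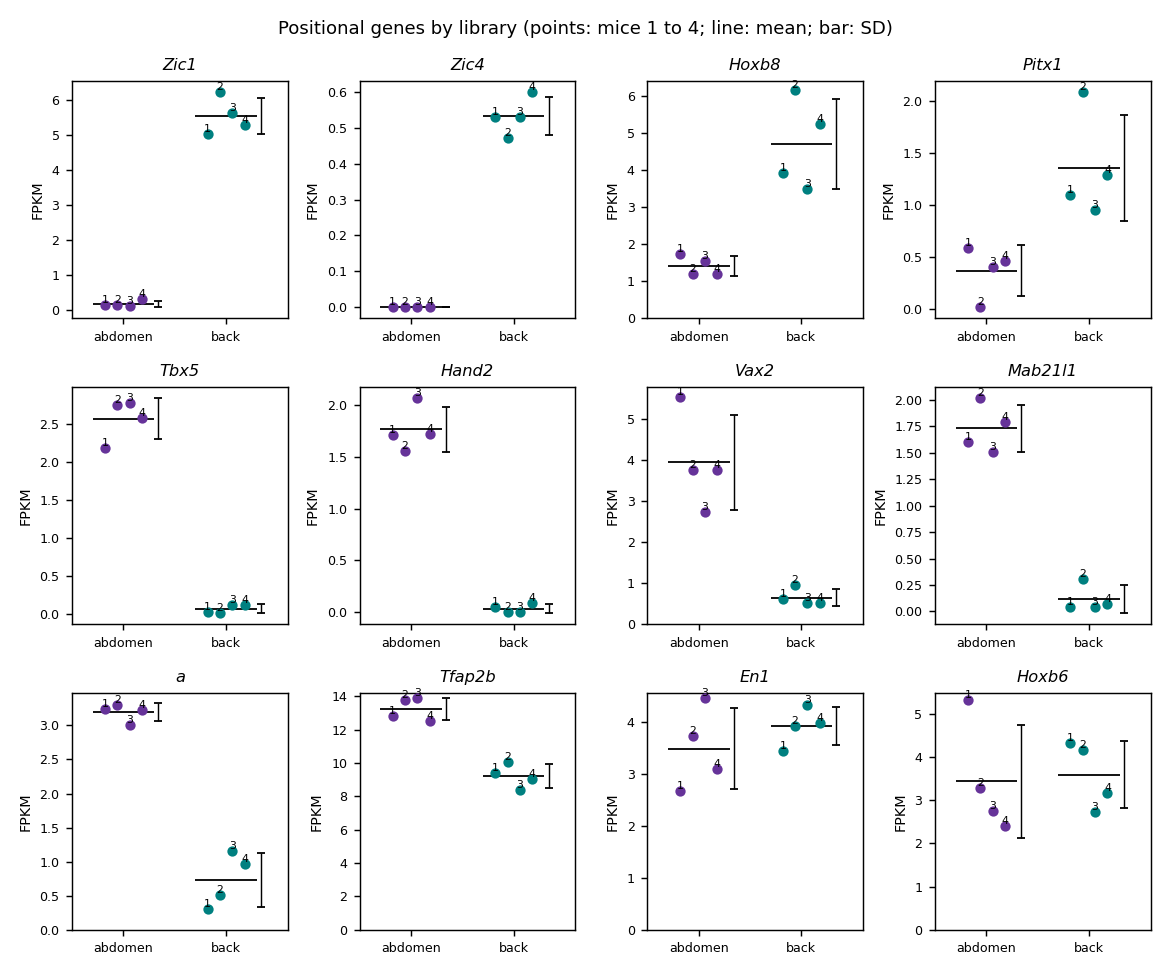
FPKM of 12 positional genes in each library (vertical), with abdomen and back side by side, numbered points for mice 1 to 4, a line at the mean and a bar of 1 SD. Zic1, Zic4, Hoxb8 and Pitx1 were higher in all 4 back libraries, Tbx5, Hand2, Vax2, Mab21l1, a and Tfap2b were higher in all 4 abdomen libraries, and En1 and Hoxb6 overlapped.

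Cholesterol is made from acetyl-CoA through the mevalonate pathway, and in skin it serves both sebum and the lipid barrier of the epidermis. Genes of this pathway, grouped after their values were seen, included 14 that were lower in back skin. All 26 tested members had a negative log2 fold change, and their median was -0.69 against -0.12 for all tested genes. After median-ratio scaling, 10 remained called with a median of -0.55. Promoter windows of this group are shown because its members moved together and sterol gene promoters are known for a pair of elements, the CCAAT box, letters CCAAT, and the sterol regulatory element, searched here as TCACNCCAC, each on both strands. Windows of 300 bases around the start, from RefSeq for GRCm38.p6, were found for 19 members. CCAAT lay in 17 of the 19 windows (89.5%), in 10 of the 11 windows of called members, and in 41.1% of all 27025 genes with a window. TCACNCCAC lay in 1, that of Hmgcs1, and in 1.44% of all. The 27025 genes were taken whether or not they were tested here, so they are not a like set for members drawn from tested genes. A match is a description of the letters only. The capitals mark these motifs in 5 members that were called, including Lss, Hsd17b7 and Cyp51, which had the lowest adjusted p of the group.
Hmgcs1, chr13:119690101-119690400, plus strand: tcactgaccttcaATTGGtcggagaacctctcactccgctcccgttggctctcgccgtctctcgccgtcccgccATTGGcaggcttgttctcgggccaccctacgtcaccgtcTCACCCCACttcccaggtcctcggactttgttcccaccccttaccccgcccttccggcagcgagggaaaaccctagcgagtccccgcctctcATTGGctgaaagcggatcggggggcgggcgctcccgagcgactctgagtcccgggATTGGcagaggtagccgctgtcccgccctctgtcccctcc
Lss, chr10:76531355-76531654, plus strand: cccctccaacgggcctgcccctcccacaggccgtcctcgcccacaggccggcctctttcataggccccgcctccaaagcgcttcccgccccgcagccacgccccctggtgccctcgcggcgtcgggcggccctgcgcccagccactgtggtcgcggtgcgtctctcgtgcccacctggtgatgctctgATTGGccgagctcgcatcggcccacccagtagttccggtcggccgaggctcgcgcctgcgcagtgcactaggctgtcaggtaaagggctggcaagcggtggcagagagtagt
Cyp51, chr5:4104648-4104947, minus strand: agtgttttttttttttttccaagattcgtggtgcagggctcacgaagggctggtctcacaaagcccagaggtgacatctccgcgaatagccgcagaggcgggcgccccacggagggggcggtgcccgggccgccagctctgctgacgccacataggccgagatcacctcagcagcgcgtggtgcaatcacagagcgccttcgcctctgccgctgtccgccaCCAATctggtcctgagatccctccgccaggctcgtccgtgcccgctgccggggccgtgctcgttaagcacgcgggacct
Msmo1, chr8:64733529-64733828, minus strand: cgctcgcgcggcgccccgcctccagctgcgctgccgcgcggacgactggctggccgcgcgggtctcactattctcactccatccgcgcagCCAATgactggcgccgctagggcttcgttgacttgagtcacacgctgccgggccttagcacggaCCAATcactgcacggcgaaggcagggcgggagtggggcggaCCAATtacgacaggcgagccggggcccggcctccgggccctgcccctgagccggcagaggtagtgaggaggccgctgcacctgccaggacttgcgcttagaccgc
Hsd17b7, chr1:169969156-169969455, minus strand: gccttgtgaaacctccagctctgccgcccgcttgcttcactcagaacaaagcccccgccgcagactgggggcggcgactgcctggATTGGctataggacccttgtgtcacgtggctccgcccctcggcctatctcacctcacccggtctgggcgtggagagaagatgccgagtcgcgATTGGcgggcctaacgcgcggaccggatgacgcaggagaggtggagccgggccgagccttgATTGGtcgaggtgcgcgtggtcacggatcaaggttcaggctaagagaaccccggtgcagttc

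The called enzymes came from early, middle and late steps of the pathway, but not from its last. Hmgcs1, which makes HMG-CoA and whose window holds the sterol regulatory element and 4 CCAAT boxes, was 171, 233, 305 and 151 FPKM in abdomen mice 1 to 4 and 109.8, 96.2, 103.1 and 113.8 FPKM in back mice 1 to 4 (log2 fold change -0.97, SE 0.21, adjusted p = 0.031). Every back library was below every abdomen library for this enzyme. The middle of the pathway was called at Pmvk (-0.95), Mvd (-0.80), Fdps (-0.68) and Sqle (-0.69). Lss, which closes the sterol rings, was 31.0 to 44.5 FPKM in abdomen and 15.4 to 18.8 FPKM in back (-1.14, SE 0.13, adjusted p = 0.0010). Cyp51, the lanosterol demethylase, averaged 142.1 ± 33.4 FPKM in abdomen and 64.7 ± 11.4 FPKM in back (SD, n = 4 each; -1.12, SE 0.17, adjusted p = 0.0064). Msmo1, a sterol C4-methyl oxidase, averaged 488 ± 102 FPKM in abdomen and 233 ± 31.2 FPKM in back (-1.05, SE 0.18, adjusted p = 0.0092). Hsd17b7, which acts late in the pathway, was 89.0, 118.6, 72.9 and 60.6 FPKM in abdomen mice 1 to 4 and 23.9, 28.1, 29.4 and 31.0 FPKM in back mice 1 to 4. It had the largest decrease of the group (-1.55, SE 0.18, adjusted p = 0.0015). Dhcr7, the reductase of the final step, overlapped between the sites, at 36.2 to 48.1 FPKM in abdomen and 28.8 to 45.2 FPKM in back, and was not called (-0.22, SE 0.17, adjusted p = 0.44). Insig2, which retains the sterol sensor in the endoplasmic reticulum, was also lower (-0.51, adjusted p = 0.013), whereas Srebf2, the factor that drives the pathway, was 28.4 to 37.5 FPKM in abdomen and 26.2 to 31.8 FPKM in back and was not called (-0.16, SE 0.13, adjusted p = 0.48).

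Leaving out 2 of the 4 libraries of a site left few of these calls. Without abdomen mice 2 and 3 the sterol group had 2 calls and a median of -0.56. Without back mice 1 and 3 it had 2 calls and a median of -0.76. All 26 members stayed negative in both fits. That was largely fixed, because the group was formed after values were seen, with the remaining libraries included. In wounds of the same mice, which are not independent animals, Hsd17b7 averaged 52.9 FPKM in abdomen and 28.5 FPKM in back (log2 fold change -0.87, adjusted p = 0.0099).

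**Figure D3:**
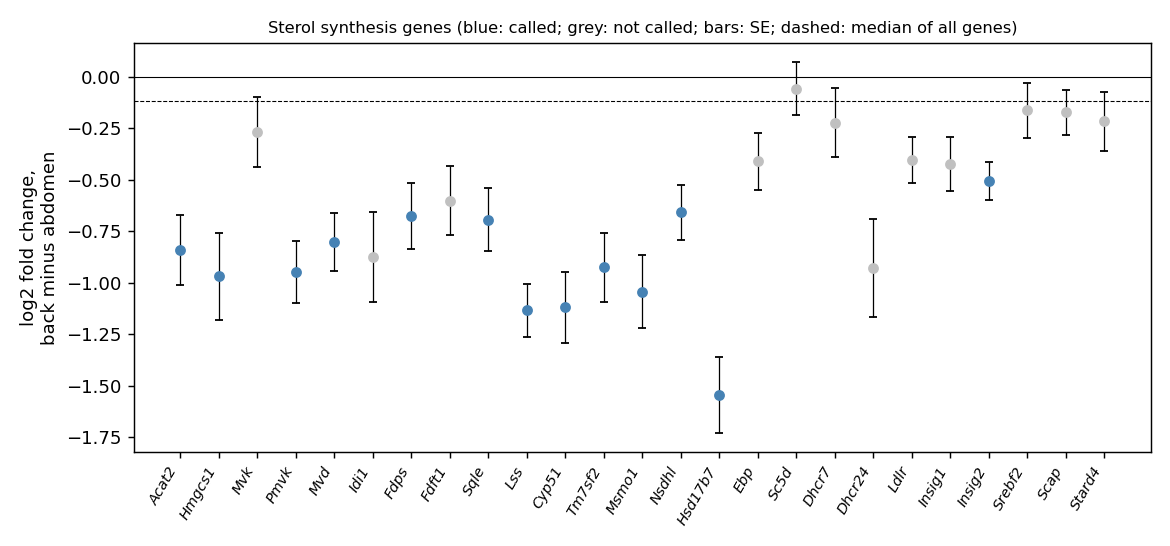
Log2 fold change of back minus abdomen with SE (vertical) for 25 of the 26 tested sterol synthesis genes in approximate pathway order (horizontal), followed by regulators and transport genes. The 13 blue points were called and the 12 grey points were not, and all lie below 0, from -0.06 to -1.55.

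Calls in other lipid pathways were lower in back skin as well; these groups too were formed after values were seen. Of 26 tested fatty acid synthesis and elongation genes, 9 were called, all lower, with a median of -0.56 (6 calls after scaling). Acly, which supplies cytosolic acetyl-CoA, was 94.7, 105.3, 87.3 and 97.0 FPKM in abdomen mice 1 to 4 and 59.3, 53.8, 55.5 and 55.0 FPKM in back mice 1 to 4. It was called in all 24 alternatives (-0.77, SE 0.10, adjusted p = 0.0015). Elovl4, the elongase of very long fatty acids of the epidermal barrier, was 601 to 896 FPKM in abdomen and 346 to 449 FPKM in back (-0.90, SE 0.17, adjusted p = 0.016). Of 22 ceramide and barrier lipid genes, 6 were called, all lower (median -0.44, 4 calls after scaling), among them the ceramide synthase Cers4 (-0.99, adjusted p = 0.016). Of 37 peroxisome genes, 7 were called lower (median -0.29, 3 calls after scaling), and of 13 retinol dehydrogenases 6 were called lower (median -0.60, 3 calls after scaling), among them Rdh1 and Rdh9. Without abdomen mice 2 and 3, 1 fatty acid gene was called (median -0.47). In the same fit limma called none of the ceramide, peroxisome and retinol dehydrogenase genes, of which 9, 11 and 8 were lower at an unadjusted p under 0.05, with medians of -0.26, -0.25 and -0.51. When back mice 1 and 3 were left out, 2 fatty acid genes were called and again none of the other 3 groups, of which 13, 17 and 7 were lower at an unadjusted p under 0.05.

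Markers of the sebaceous gland, the lipid-secreting appendage of the hair follicle, moved with these groups. Of 16 tested sebaceous markers 3 were called, all lower, and the median was -0.78 (1 call and a median of -0.65 after scaling). Without abdomen mice 2 and 3 limma called none, with 8 lower at an unadjusted p under 0.05 and a median of -0.69, and without back mice 1 and 3 it called 1 (median -0.91). Their summed level was 1716 to 2472 FPKM in abdomen and 1049 to 1523 FPKM in back, and none of the 17 markers in the table was at 0 in all 8 libraries. Awat1, a wax synthase of sebum, was 124 to 208 FPKM in abdomen and 48.8 to 98.8 FPKM in back (-1.30, SE 0.29, adjusted p = 0.036). Soat1, which esterifies cholesterol, was 30.1 to 51.8 FPKM in abdomen and 13.9 to 23.7 FPKM in back (-1.05, SE 0.24, adjusted p = 0.040). Both genes' ranges were separate. In whole skin, fewer cells of a type and less RNA per cell cannot be told apart, and the part of gland content in the lipid results was not tested. Of 26 tested adipocyte markers 3 were called, all lower (Acly, Cidea and Scd1, of which Acly and Scd1 serve lipid synthesis in many cells), and the median was -0.16, with 1 call left when either pair of libraries was left out. Of 48 interfollicular epidermis genes only Rptn, repetin, was called (-0.95, adjusted p = 0.047), a share near the 2.67% of all tested genes. Limma called none of them when either pair was left out, with 4 and 8 at an unadjusted p under 0.05.

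Enzymes of xenobiotic metabolism held a further set of calls. Of 48 tested members 13 were called, all lower, with a median of -0.35 (6 calls and -0.22 after scaling). Without abdomen mice 2 and 3 limma called none, with 17 lower and 2 higher at an unadjusted p under 0.05 and a median of -0.27, and none without back mice 1 and 3, with 20 lower at an unadjusted p under 0.05 and a median of -0.31. Cyp1a1, a hydroxylase induced through the aryl hydrocarbon receptor, was 25.1, 30.5, 28.8 and 20.5 FPKM in abdomen mice 1 to 4 and 12.9, 10.5, 11.6 and 12.7 FPKM in back mice 1 to 4 (-1.09, SE 0.16, adjusted p = 0.0052). Cyp4b1 was 28.1 to 34.6 FPKM in abdomen and 15.5 to 19.0 FPKM in back (-0.82, SE 0.13, adjusted p = 0.0081). Both were separate between the sites. Cyp2b10, Cyp2b9, Cyp2b23 and Cyp2b19, which neighbour each other on chromosome 7, were all called lower, with log2 fold changes of -0.76, -0.94, -2.14 and -0.89. These are related copies of a gene family whose similarity was not measured here. How any shared reads were divided among them is not known, so each value is uncertain. In the same way Aadacl4, Gm13178 and Gm438, arylacetamide deacetylase-like genes side by side on chromosome 4, were lower by -1.66, -1.38 and -1.35. Aadacl4 was 90.0, 82.5, 65.6 and 76.3 FPKM in abdomen mice 1 to 4 and 32.9, 18.2, 25.2 and 23.6 FPKM in back mice 1 to 4, with an adjusted p of 0.00032.

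Single genes with large differences included secreted and immune factors. C130079G13Rik, an uncharacterised locus at chr3:59925214-59937949, was 50.2, 148.7, 78.2 and 65.1 FPKM in abdomen mice 1 to 4 and 17.5, 18.1, 15.9 and 23.4 FPKM in back mice 1 to 4 (-2.06, SE 0.28, adjusted p = 0.0041). Serpinb6c, a serine protease inhibitor, averaged 42.3 ± 11.2 FPKM in abdomen and 12.5 ± 2.38 FPKM in back (-1.70, SE 0.18, adjusted p = 0.00087). Mpo, myeloperoxidase, was 23 to 36.9 FPKM in abdomen and 7.58 to 11.3 FPKM in back (-1.72, SE 0.21, adjusted p = 0.0015), and was the single call among 8 tested neutrophil genes. Ccl20, the ligand of CCR6, was 3.62 to 8.76 FPKM in abdomen and 0.64 to 2.03 FPKM in back (-1.68, SE 0.35, adjusted p = 0.029). Acot5, a peroxisomal thioesterase, was 6.09 to 19.0 FPKM in abdomen and 1.09 to 3.88 FPKM in back (-2.04, SE 0.40, adjusted p = 0.025). The naming rule took these 5 genes from those without overlap between sites. Ccl20 and Acot5 lost their call without abdomen mice 2 and 3 (limma adjusted p = 0.35 and 0.27). Of 17 tested T and NK cell markers limma called none, with 16 negative, a median of -0.50 and 9 lower at an unadjusted p under 0.05. The 9 became 1 without abdomen mice 2 and 3, 7 without back mice 1 and 3, and 4 after scaling. Among lymphocyte receptors named after their values were seen Tigit (-1.02, adjusted p = 0.031) and Klrg1 (-0.995, adjusted p = 0.047) were lower. The cytokines Il20 (-1.51, adjusted p = 0.011) and Ccl5 (-1.57, adjusted p = 0.029) were lower. None of these 4 genes was called when either pair of libraries was left out, and Tigit was too low to be tested without abdomen mice 2 and 3. Limma called no macrophage, dendritic cell, mast cell, B cell, endothelial or lymphatic marker, of 22, 14, 9, 4, 21 and 5 tested, of which 1, 2, 1, 2, 2 and 2 had an unadjusted p under 0.05.

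A few signalling genes of skin appendages differed, in both directions. Dkk2, a secreted WNT inhibitor, was 12.8, 21.5, 23.2 and 17.7 FPKM in abdomen mice 1 to 4 and 4.90, 4.88, 9.21 and 8.30 FPKM in back mice 1 to 4 (-1.42, SE 0.25, adjusted p = 0.014). Lgr5, an R-spondin receptor of follicle stem cells, was 8.54 to 17.1 FPKM in abdomen and 5.04 to 5.67 FPKM in back (-1.12, SE 0.19, adjusted p = 0.0086). Sfrp5, another secreted WNT antagonist, went the other way, at 1.10 to 2.33 FPKM in abdomen and 5.02 to 9.41 FPKM in back (1.70, SE 0.31, adjusted p = 0.014). These were the 3 calls among 52 tested WNT genes, and none of the 3 overlapped. Nog, the BMP antagonist noggin, was higher in back (0.64, SE 0.15, adjusted p = 0.043). It was the single call among 42 BMP and TGF-β genes, a share near the 2.67% of all tested genes. Of 19 FGF genes, Fgf10, Fgfr4 and Fgfbp1 were lower (-0.67, -0.74 and -0.60), with 1 call after scaling. Of 21 retinoid genes, Crabp1, a retinoic acid binding protein, and Rarres1, a retinoic acid responder, were lower (-1.29 and -1.08, adjusted p = 0.0090 and 0.0052). Of 52 axon guidance genes 1, Efnb2 or ephrin-B2, was lower (-0.61, adjusted p = 0.011), a smaller share than the 2.14% of all tested genes. Limma called none of 10 hedgehog genes, 0 of which had an unadjusted p under 0.05. No WNT, BMP and TGF-β, FGF or axon guidance gene was called by limma when either pair of libraries was left out. At an unadjusted p under 0.05 there were then 9, 3, 4 and 3 of them without abdomen mice 2 and 3 and 6, 3, 5 and 6 without back mice 1 and 3. Of the retinoid genes, Rarres1 was called in the first of these fits and Crabp1 in the second.

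Extracellular matrix genes mostly did not pass the test. The most pronounced exception was Cthrc1, a secreted collagen triple helix repeat protein, at 25.6, 22.96, 24.7 and 25.4 FPKM in abdomen mice 1 to 4 and 108.6, 107.3, 178.1 and 165.7 FPKM in back mice 1 to 4. All 4 back libraries stood far above the highest abdomen library (2.44, SE 0.21, adjusted p = 0.00022), and it was called in all 24 alternatives. In wounds it averaged 87.0 FPKM in abdomen and 160.0 FPKM in back. Thbs4, a thrombospondin of tendon and muscle attachments, was 1.04 to 2.15 FPKM in abdomen and 4.21 to 8.18 FPKM in back (1.65, SE 0.24, adjusted p = 0.0054). Tnmd, the tendon protein tenomodulin, was 11.7 to 26.0 FPKM in abdomen and 58.9 to 96.8 FPKM in back (1.82, SE 0.27, adjusted p = 0.0070). Of 33 tested collagens only Col7a1, the anchoring fibril collagen, was called (-0.44, adjusted p = 0.044), and not after scaling. That share was near the 2.67% of all tested genes. Col1a1 averaged 4277 ± 679 FPKM in abdomen and 5633 ± 1040 FPKM in back (0.39, SE 0.18, adjusted p = 0.22), and Sparc, a collagen-binding matrix protein, 4349 ± 216 and 5724 ± 975 FPKM (0.38, SE 0.20, adjusted p = 0.28). Col22a1, a collagen of tissue junctions, was 0.01 to 0.12 FPKM in abdomen and 0.37 to 0.56 FPKM in back, too low to be tested; with no filter it was the 1 collagen called higher (0.82, SE 0.11, adjusted p = 0.0067). Fmod and Kera, small leucine-rich proteoglycans, were lower in back (-0.98 and -0.92) but not after scaling. Among 21 fibroblast markers Pi16 and Gpx3 were higher (1.67 and 0.91, adjusted p = 0.029 and 0.014). Tgm2, a cross-linking transglutaminase, was higher (1.24, adjusted p = 0.020), the single call among 30 tested collagen processing genes. At an unadjusted limma p under 0.05, 4 of the 30 were higher and 0 lower, and after scaling 11 and 0. For the 33 collagens these counts were 1 higher and 5 lower, and after scaling 9 and 3. When either pair of libraries was left out, Cthrc1 was still called, Thbs4 and Tgm2 were not, and Tnmd was called without abdomen mice 2 and 3 alone. Limma then called none of the collagens, small leucine-rich proteoglycans or fibroblast markers, with 3, 3 and 4 at an unadjusted p under 0.05 without abdomen mice 2 and 3 and 4, 4 and 5 without back mice 1 and 3.

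Among the genes with the largest increases in back were some known from skeletal muscle. Vgll2, a muscle-specific cofactor, was 1.89, 0.15, 0.43 and 1.98 FPKM in abdomen mice 1 to 4 and 8.91, 20.6, 7.88 and 10.3 FPKM in back mice 1 to 4 (3.07, SE 0.46, adjusted p = 0.0075). Pdk4, the kinase that shuts off pyruvate dehydrogenase in fasting, was 2.65 to 7.08 FPKM in abdomen and 13.8 to 96.9 FPKM in back (2.95, SE 0.55, adjusted p = 0.024). Fbp2, the muscle fructose bisphosphatase, was 1.24 to 8.44 FPKM in abdomen and 11.9 to 27.2 FPKM in back (2.68, SE 0.49, adjusted p = 0.020). All 3 were separate between the sites, as the naming rule required, and abdomen mice 2 and 3 were the lowest. Camk2b (2.16), Asb10 (2.47), Lrp2bp (2.15) and Padi2 (2.12) were called as well, as were Gyg (1.52) and Ugp2 (1.10), genes of glycogen synthesis named after their values were seen.

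The muscle content of the libraries differed alongside. Acta1, skeletal muscle actin, was 5880, 181, 1023 and 4840 FPKM in abdomen mice 1 to 4 and 7520, 9737, 6172 and 7966 FPKM in back mice 1 to 4. The ranges were separate but it was not called (2.35, SE 0.93, adjusted p = 0.18; two-sided exact permutation p = 0.0286, the smallest possible with 4 against 4). Of 42 tested muscle markers 3 were called higher (Vgll2, Asb2 and Asb10), 40 were positive, and the median was 1.94. The summed level of the 46 markers in the table was 1010 to 26577 FPKM in abdomen and 23287 to 37217 FPKM in back, with 1 marker at 0 in all 8 libraries. Without abdomen mice 2 and 3 the list had 1 call, 29 positive members and a median of 0.22, and 12 fast-fibre genes went from a median of 1.77 to -0.01. When back mice 1 and 3 were left out limma called no muscle marker, with 8 higher at an unadjusted p under 0.05, 40 positive and a median of 2.21. Of the 74 genes called higher in back, 52 had their lowest value of the 8 libraries in abdomen mouse 2 and 17 in abdomen mouse 3. Abdomen mice 1 and 4 were lowest for 2 and 3 of them. Abdomen mouse 2 was lowest for 10.5% of all tested genes. That share is not a like comparison, because genes called higher in back mostly have their lowest value in an abdomen library. Without both libraries the median of the 74 went from 1.14 to 0.87. All 74 stayed positive, which was largely fixed because they were chosen as higher in back with the remaining libraries included. Of the 74, 10 were still called. Vgll2 (2.25, adjusted p = 0.041) and Camk2b (1.53, adjusted p = 0.041) were among them, and Pdk4 (2.51, adjusted p = 0.30), Fbp2 (1.85, adjusted p = 0.17) and Asb10 (1.40, adjusted p = 0.19) were not. The genes Zic1, Hoxb8, Cthrc1, Mup20, C6, Tnmd and Stc1 also kept their call. Of 77 respiratory chain genes limma called none, with 35 higher at an unadjusted p under 0.05, 72 positive and a median of 0.30 (0.18 and 2 higher at an unadjusted p under 0.05 without abdomen mice 2 and 3).

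**Figure D4:**
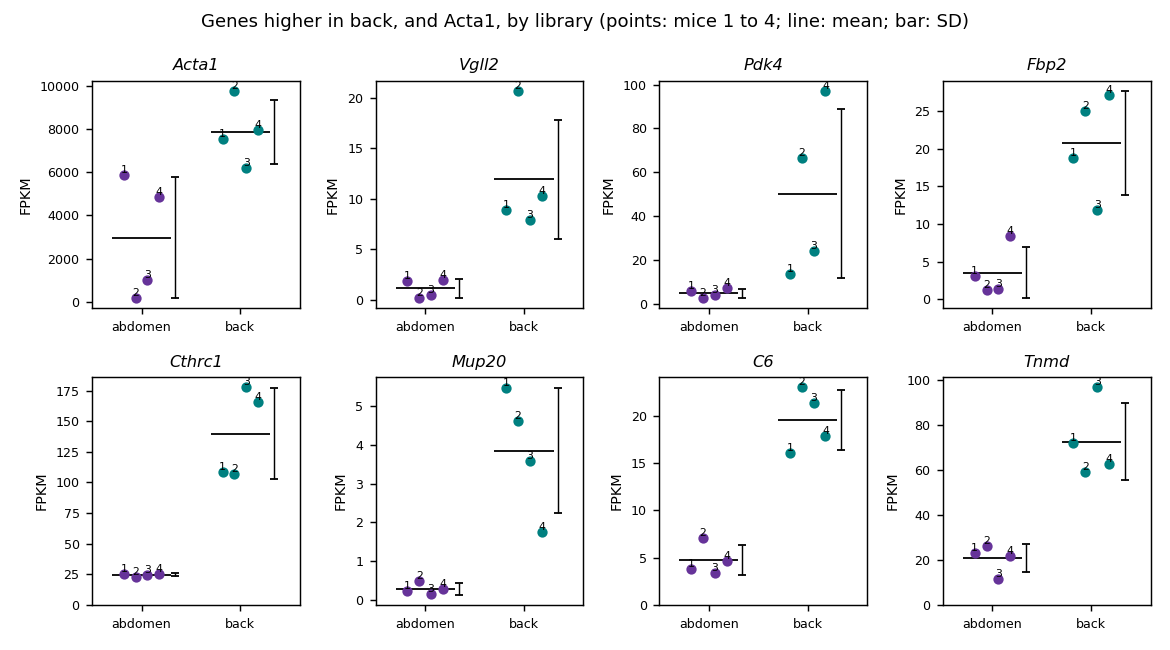
FPKM by library (vertical) for Acta1, the skeletal muscle actin, and 7 genes called higher in back, with abdomen and back side by side, numbered points for mice 1 to 4, a line at the mean and a bar of 1 SD. Abdomen mice 2 and 3 were low for Acta1, Vgll2 and Fbp2, whereas Cthrc1 was between 22.96 and 25.6 FPKM in all 4 abdomen libraries.

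Genes of some other secreted proteins were also higher in back, and which cells of the punch expressed them was not tested. Mup20, a major urinary protein that acts as a male pheromone, was 0.22, 0.50, 0.15 and 0.29 FPKM in abdomen mice 1 to 4 and 5.47, 4.62, 3.57 and 1.74 FPKM in back mice 1 to 4 (2.39, SE 0.26, adjusted p = 0.00091). Of 14 tested genes of the major urinary protein and liver list it was the single call, 13 were positive and the median was 1.31. The list had 2 calls without abdomen mice 2 and 3, and without back mice 1 and 3 limma called none of 12 tested, with 7 higher at an unadjusted p under 0.05. Many members of this family are near-identical copies, so that values of single members are uncertain. C6, a component of the terminal complement complex, was 3.42 to 7.04 FPKM in abdomen and 16.1 to 23.1 FPKM in back (1.97, SE 0.28, adjusted p = 0.0055). Stc1, the hormone stanniocalcin 1, was 0.71 to 1.39 FPKM in abdomen and 3.19 to 4.23 FPKM in back (1.52, SE 0.18, adjusted p = 0.0014), and was called in all 24 alternatives. Each of the 3 genes was higher in all 4 back libraries than in any abdomen library.

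Some immediate early, splicing and chaperone genes were lower in back, fewer of them after scaling or with fewer libraries. Of 21 tested immediate early genes, which respond within minutes to stimulation or tissue handling, Fos (-1.66, adjusted p = 0.030), Egr1 (-1.12, adjusted p = 0.025) and Btg2 (-0.46, adjusted p = 0.020) were lower, 19 were negative and the median was -0.45, and after scaling limma called none, with 9 lower at an unadjusted p under 0.05. Egr1 alone was called without abdomen mice 2 and 3, and none of them without back mice 1 and 3, with 11 lower at an unadjusted p under 0.05. Of 37 splicing factor genes, grouped after their values were seen, 8 were called lower, among them Rsrp1 (-0.83, adjusted p = 0.0081), and all 37 were negative (median -0.38, 3 calls after scaling). Of 18 endoplasmic reticulum chaperones, also grouped after their values were seen, 3 were called lower, Hspa5, Hsp90b1 and Creld2, with 1 call after scaling. Limma called no splicing factor or chaperone when either pair of libraries was left out, with 13 and 8 lower at an unadjusted p under 0.05 without abdomen mice 2 and 3 and 12 and 11 without back mice 1 and 3. Of 28 interferon-stimulated genes limma called none, with 1 higher at an unadjusted p under 0.05. The list was highest in back mouse 3, where Ifit1 was 6.43 FPKM against 0.78 to 1.79 FPKM in the other 7 libraries. Its median was 0.34, with 0.53 without abdomen mice 2 and 3 and -0.22 without back mice 1 and 3.

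The remaining lists held few calls. Myh11, smooth muscle myosin, was 23.2 to 29.5 FPKM in abdomen and 12.7 to 15.3 FPKM in back (-0.85, SE 0.14, adjusted p = 0.010), whereas Synpo2, an actin-binding protein of the same list of 13 genes, was higher in back (1.12, adjusted p = 0.042). Areg, the EGF receptor ligand amphiregulin, was 2.27 to 2.76 FPKM in abdomen and 0.51 to 1.13 FPKM in back (-1.31, SE 0.23, adjusted p = 0.012), and was the single call among 14 glandular epithelium genes. Of 32 serpins, Serpine2 was higher (0.75, adjusted p = 0.034), and Serpina3b and Serpinb6c were lower; Serpina3b was 148.7 to 358.6 FPKM in abdomen and 55.8 to 92.4 FPKM in back (-1.63, SE 0.30, adjusted p = 0.016). Adamts8, a metalloprotease, was the single call among 33 proteases (-0.70, adjusted p = 0.014), a share near the 2.67% of all tested genes. Mmrn1, multimerin 1, was the single call among 17 elastic fibre and microfibril genes (-0.76, adjusted p = 0.031, not called after scaling). Limma called none of 32 proliferation genes, 10 follicle stem cell markers or 14 hair shaft and root sheath genes, of which 0, 4 and 0 had an unadjusted p under 0.05. Of the genes named here Serpinb6c was called when either pair of libraries was left out. The lists of smooth muscle, glandular epithelium, proteases and elastic fibres then had no call by limma, with 4, 3, 1 and 3 genes at an unadjusted p under 0.05 without abdomen mice 2 and 3 and 5, 2, 4 and 4 without back mice 1 and 3.

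**Figure D5:**
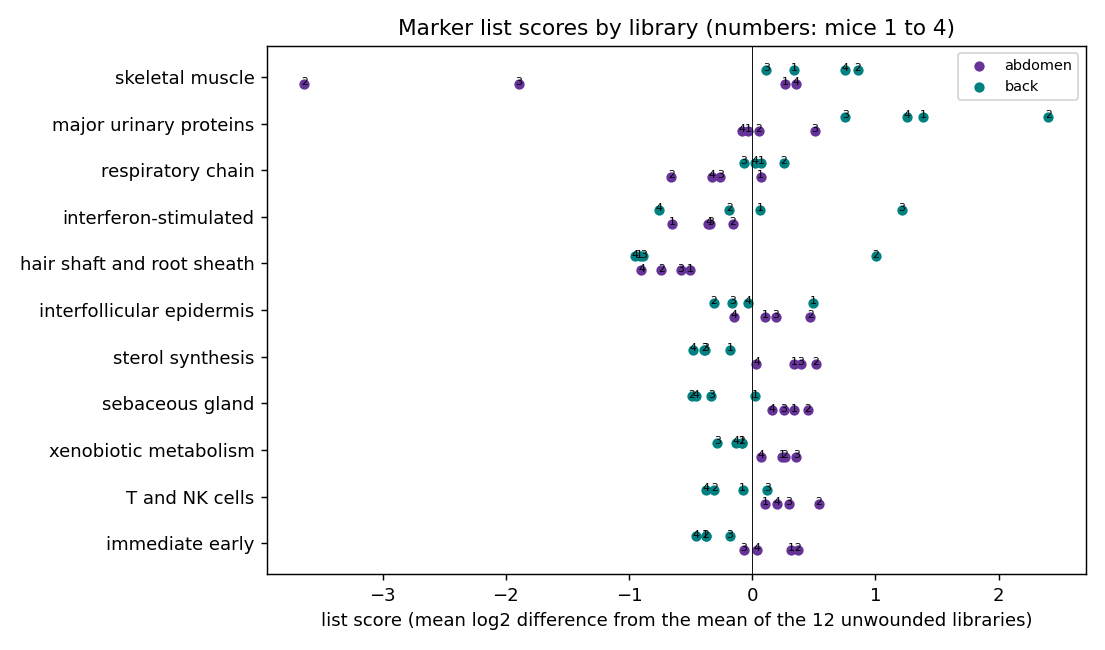
Score of 11 gene lists in each library (horizontal: mean over tested members of the log2 difference from the mean of the 12 unwounded libraries), with numbered points for mice 1 to 4 in abdomen (purple) and back (teal). Abdomen mice 2 and 3 stand apart for skeletal muscle at -3.64 and -1.90 and back mouse 2 for hair at 1.00, while sterol synthesis scores were 0.03 to 0.51 in abdomen and -0.48 to -0.18 in back.

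Cheek skin and wounds place these genes further. The cheek mean was nearer to the back mean than to the abdomen mean for 210 of the 373 called genes, 50 of the 74 higher and 160 of the 299 lower. The same share over all tested genes was not computed. These counts therefore do not show whether the called genes differ from other genes in this respect. Cthrc1 averaged 30.7 ± 8.49 FPKM in cheek, near its abdomen level, Zic1 0.573 ± 0.16 FPKM, and Hoxb8 was at 0 in all 4 cheek libraries. Between back wounds and abdomen wounds, 178 of 14023 tested genes were called (1.27%). Of the 368 genes called in unwounded skin and tested in wounds, 54 were also called in wounds in the same direction, among them Zic1, Hoxb8, Tbx5, Hand2, Mab21l1, Cthrc1, Hsd17b7 and Lss. The wounds came from the same mice, so these are not independent animals.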

How the data were processed

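Whole-skin RNA of 24 libraries was sequenced for the authors, and the 12 unwounded libraries were used here, with the wound libraries for side-by-side values. According to the study's methods and processing notes, reads were mapped to GRCm38 (mm10) with HISAT2 and Bowtie2 2.2.5 and quantified per library with RSEM 1.2.12. The authors deposited FPKM values per gene without scaling between libraries, and depth is therefore unknown in reads; a rough relative depth from the smallest non-zero values, which can only find differences within the search window, was 0.992 to 1.021. A second deposited table of the authors' own comparisons (log2 changes and their p-values, from DESeq2) was not used. All per-sample columns were assigned from the labels (0 left unused). FPKM hold counting error, which cannot be separated out without reads and weighs most on low genes. Precision rests on 4 mice per site. The p-values set each difference against the spread within sites, pooled over the 12 unwounded libraries and moderated across genes.

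The test was limma 3.58.1 on log2(FPKM + 0.5) (statmod 1.5.0, R 4.3.3) with trend and robust moderation, over the 12 unwounded libraries as 3 groups, for genes at 0.5 FPKM or more in at least 4 libraries. P-values were adjusted by Benjamini-Hochberg over all tested genes with a threshold of 0.05. Single genes were also tested by exact two-sided permutation of FPKM. On simulated data, 79% of 200 genes changed by a log2 fold of 1 were recovered among 13854 genes, with 8 others called. Whether these figures hold for the measured libraries, some of which stood apart from the others of their site, was not tested. Genes were named by a rule: those the study names for these sites, the 10 largest changes in each direction without overlap, the 10 lowest adjusted p, up to 4 called members per list (or the 2 lowest p where none was called), all called positional factors, and genes listed at 0 throughout one site and at 0.5 FPKM or more throughout the other, which 0 genes met; others were added once their values were known. Some genes that these choices name are not reported here. The members and the 51 gene lists were chosen with earlier results of these data known, and 9 further lists after values were seen. Coordinates are GRCm38 from RefSeq, which matched 18318 of 18368 genes. Alternatives covered the pseudocount, filter, scaling, moderation, libraries in the fit, a replicate block and leaving out each library; 2 further ones, leaving out pairs of libraries, were chosen after seeing the data.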

Additional observations from a re-analysis of the deposited data

Results flagged for a closer look

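Of 430 groups of 4 libraries examined (named genes and list scores at each site), 22 had 1 library whose gap to the nearest other exceeded Dixon's 95% critical value. Chance flags about 1 in 20 groups, which is about the rate found. The flags listed here are therefore no more than chance gives, and each is a description only. In the abdomen, mouse 2 stood apart for Boc at 13.81 FPKM, Cyp4b1 at 34.56 FPKM, Myod1 at 0 FPKM and the smooth muscle and pericyte list score at -0.15. Abdomen mouse 3 stood apart for Rplp2 at 1594 FPKM and Pi16 at 81.2 FPKM, abdomen mouse 4 for Krtap3-2 at 36.4 FPKM, Msmo1 at 338.2 FPKM and the retinoid list score at -0.065, and abdomen mouse 1 for Spink5 at 128.5 FPKM. In the back, mouse 2 stood apart for Fgfbp1 at 51.4 FPKM, Krt71 at 27.3 FPKM, Krt27 at 16.0 FPKM, Rdh1 at 21.3 FPKM and the list scores of FGF genes at 0.056, hair shaft and root sheath at 1.00 and B cells at -0.067. Back mouse 3 stood apart for Ifit1 at 6.43 FPKM and the matricellular list score at 0.19, and back mouse 4 for Corin at 0.15 FPKM, the WNT list score at -0.16 and the hedgehog list score at -0.51. The muscle markers of abdomen mice 2 and 3 and the insulin genes of back mice 1 and 3 were not flagged by this test, since 2 of 4 libraries were alike.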

How the results depend on the processing

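Of 3745 values for single genes under the alternatives, 3098 kept their direction and side of the threshold, 618 kept their direction but were no longer called, 21 became called and 8 reversed. The main counts were 373 calls, 74 higher and 299 lower. Median-ratio scaling gave 209 (80 higher, 129 lower; median 0.0044), and quantile normalization gave 194 lower with a median of -0.043. The fit of all 24 libraries as 6 groups gave 1527 (430 higher, 1097 lower), of which 362 were among the 373. Without a filter the median was -0.076. Leaving out 1 library gave 109 to 543 calls (21 to 151 higher, 88 to 392 lower) and a median of -0.13 to -0.096. The count fell to 109 without abdomen mouse 2, 124 without abdomen mouse 3, 144 without back mouse 2 and 171 without back mouse 3. The higher calls were 121 without abdomen mouse 1, 151 without abdomen mouse 4, 47 without back mouse 1 and 43 without back mouse 4. Without abdomen mice 2 and 3 there were 38 calls (14 higher, 24 lower; median -0.087) and without back mice 1 and 3 there were 33 (12 higher, 21 lower; median -0.13); these fits have fewer samples. With the mouse number as a replicate block there were 206 calls (45 higher, 161 lower), 42 and 152 of them shared with the main calls. The numbers name different mice at the 2 sites, and same-numbered libraries did not deviate together (r = -0.027, -0.27, 0.0081 and 0.15 across genes), so the block is not a pairing. The reversed values were Eif2s3y at 0.0078 under median-ratio scaling; Myh4 at -0.43 without abdomen mouse 2, -0.0071 without abdomen mouse 3 (its range was -0.43 to 1.36) and -1.57 without both; Hoxb6 at -0.041 without abdomen mouse 4 (its range over single libraries left out was -0.041 to 0.29) and -0.029 without abdomen mice 2 and 3; and Cela1 at -0.21 and Fcgr1 at -0.095 without back mice 1 and 3. None of these genes was called in the main analysis, and the cause was not tested. Depth in reads is unknown, so how far it limits low genes could not be given.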

Other observations

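The largest positive log2 fold changes, of Hbb-b1 and Hbb-b2, did not pass the test and came with large differences between mice of a site. CD1 mice are outbred, and the reference lists the adult β-globin genes of alternative haplotypes as separate genes. Hbb-b1 was 0, 187.9, 380.1 and 0.13 FPKM in abdomen mice 1 to 4 and 372.6, 359.1, 532.8 and 316.0 FPKM in back mice 1 to 4 (log2 fold change 4.98, SE 2.04, adjusted p = 0.19). Hbb-bs was 477.5, 177.3, 0.35 and 180.4 FPKM in abdomen and 315.7, 0.73, 477.3 and 294.6 FPKM in back (0.52, SE 2.80, adjusted p = 0.93). Abdomen mice 1 and 4 thus held Hbb-bs and almost no Hbb-b1, abdomen mouse 3 and back mouse 2 the opposite, and the other 4 mice held both. Skint9, of an immunoglobulin-like family of skin and thymus, was 44.8, 0, 0 and 0 FPKM in abdomen and 33.0, 22.8, 0 and 63.7 FPKM in back (3.03, SE 2.16, adjusted p = 0.43). None of these genes was called.

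Sprr2a2, a small proline-rich protein of the cornified envelope, was 3.56 to 7.16 FPKM in abdomen and 0, 0, 0 and 1.14 FPKM in back (-2.97, SE 0.85, adjusted p = 0.091). Mup7 was 2.18 to 20.5 FPKM in abdomen and 27.9 to 340.9 FPKM in back (3.39, SE 0.86, adjusted p = 0.071), and Mup10 was 366.9 to 910.3 FPKM in abdomen and 1183 to 4488 FPKM in back (1.82, SE 0.63, adjusted p = 0.14). For these 3 genes the sites did not overlap but the test was not passed. They were chosen after their values were seen, and they belong to families of near-identical copies.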
